A study of Mus musculus with 3 samples.

Results

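The 10 genes described here are negative regulators and receptors of the Wnt pathway: Axin1, Axin2, Apc, Gsk3b, Btrc, Znrf3, Rnf43, Nkd1, Lrp5 and Lrp6. They are 10 of 21887 protein-coding genes. Tcf1 peaks were counted at a gene if their midpoint lay in its mm10 span, or if it was the nearest protein-coding gene within 100 kb. That rule found 8 of 3402 peaks in regulatory T cells (Treg cells) and 13 of 4519 peaks in conventional CD4 T cells. Tcf1, the HMG-box factor encoded by Tcf7, had been immunoprecipitated with an antiserum from cells sorted from the spleens of wild-type Foxp3-Cre-GFP mice aged 8 to 10 weeks. The Treg cells were TCRb+, CD4+, CD25+ and positive for the Foxp3 reporter, and the conventional cells were TCRb+, CD4+, CD25- and negative for it. The conventional sample is labelled conventional in its title and effector in its tissue label. Another library, of Tcf1-deficient CD4 T cells from CD4-Cre+ Tcf1 fl/fl mice, was not analysed here. Each cell type had 1 library, and the labels do not say whether cells of several mice were pooled. Peak lists do not measure expression, so the identity of the cells could not be checked against marker genes.

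In Wnt signalling, a cytoplasmic complex built on the scaffolds Axin and Apc holds beta-catenin so that the kinase Gsk3b can phosphorylate it and the ubiquitin ligase subunit encoded by Btrc can mark it for degradation. Wnt ligands bound to Frizzled and the co-receptors Lrp5 or Lrp6 halt that complex, and beta-catenin then joins TCF/LEF factors, the family of Tcf1, on DNA. Axin2, Znrf3, Rnf43 and Nkd1 are known in many tissues as feedback genes, which beta-catenin and TCF/LEF factors switch on and whose products dampen the pathway. In T cells Tcf1 also acts without Wnt signals.

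Peaks of both lists lay over annotated transcription starts at Axin2, at Gsk3b and at Gm46298, a long noncoding RNA gene beside Axin2, a Treg peak alone lay over the start of BC031361, a noncoding RNA gene that begins inside Gsk3b, and a conventional peak alone lay over the start of Gm35162, a noncoding RNA gene next to Nkd1. The 250 bases before those starts, which lie wholly or partly under the peaks, are shown for the letters that TCF/LEF factors recognise. They come from RefSeq GRCm38.p6 and read 5′ to 3′ toward the gene. Capitals mark the letters CTTTG, the core of the DNA sequence that TCF/LEF factors recognise, on either strand, with the following A or AT where present.
Axin2, chr11:108920099-108920348, plus strand: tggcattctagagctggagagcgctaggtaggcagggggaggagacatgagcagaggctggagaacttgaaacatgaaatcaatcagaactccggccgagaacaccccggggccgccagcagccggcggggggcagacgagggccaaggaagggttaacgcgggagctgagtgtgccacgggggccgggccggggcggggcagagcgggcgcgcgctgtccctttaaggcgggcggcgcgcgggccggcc
Gm46298, chr11:108910960-108911209, minus strand: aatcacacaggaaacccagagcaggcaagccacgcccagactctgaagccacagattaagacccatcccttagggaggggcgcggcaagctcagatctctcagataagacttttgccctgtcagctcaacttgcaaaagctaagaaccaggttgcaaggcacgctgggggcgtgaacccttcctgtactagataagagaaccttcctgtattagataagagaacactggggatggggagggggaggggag
Gsk3b, chr16:38088751-38089000, plus strand: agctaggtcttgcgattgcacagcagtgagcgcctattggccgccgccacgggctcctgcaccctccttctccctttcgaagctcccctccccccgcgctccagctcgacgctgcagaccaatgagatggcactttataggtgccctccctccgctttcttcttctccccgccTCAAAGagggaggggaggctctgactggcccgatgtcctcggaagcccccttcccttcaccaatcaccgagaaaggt
BC031361, chr16:38089261-38089510, minus strand: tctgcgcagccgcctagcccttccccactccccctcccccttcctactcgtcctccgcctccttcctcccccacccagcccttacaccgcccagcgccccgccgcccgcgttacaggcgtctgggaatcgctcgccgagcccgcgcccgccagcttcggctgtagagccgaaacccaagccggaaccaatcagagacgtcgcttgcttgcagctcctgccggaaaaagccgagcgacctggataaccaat
Gm35162, chr8:88521122-88521371, minus strand: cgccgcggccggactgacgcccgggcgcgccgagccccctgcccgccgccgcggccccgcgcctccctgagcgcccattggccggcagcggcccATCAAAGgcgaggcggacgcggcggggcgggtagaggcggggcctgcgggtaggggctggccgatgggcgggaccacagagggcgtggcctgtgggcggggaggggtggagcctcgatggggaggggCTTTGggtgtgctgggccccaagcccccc

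At least 1 Treg peak was assigned to 5 of the 10 genes (95% interval of the share 18.7% to 81.3%), namely Axin2, Znrf3, Rnf43, Gsk3b and Lrp6. A conventional peak was assigned to 6 of the 10 (26.2% to 87.8%), the same 5 and Nkd1. Of all protein-coding genes, 12.3% had a Treg peak, 16.3% a conventional peak and 8.17% a peak in both lists. Shares of all genes, here and below, were not matched for gene length or for distance to neighbouring genes. Both enter the rule that assigns peaks, and the spans of the 10 genes run from 33.0 to 170 kb. Axin1, Apc, Lrp5 and Btrc had no peak in either list. Among the 4 feedback genes, 3 had a Treg peak and 4 had a conventional peak, with 6 and 10 peaks in all. Among the 6 destruction complex and co-receptor genes, 2 had a peak in each list, with 2 Treg and 3 conventional peaks. The 10 genes are a fixed list and not a random draw, so these intervals are no test against the shares of all genes. With 1 library per cell type and no read counts, these numbers describe the lists, and a gene without a peak is one at which none was called at an unknown depth.

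All 8 Treg peaks at these genes overlapped a conventional peak (lower bound of the 95% interval 63.1%), where 56.9% of all Treg peaks did. In the other direction 8 of 13 conventional peaks overlapped a Treg peak (61.5%, 31.6% to 86.1%), where 42.8% of the whole list did. The remaining 5 conventional peaks (38.5%, 13.9% to 68.4%) had no Treg peak overlapping them and no Treg midpoint within 1000 bp, which held for 55.9% of all conventional peaks. They lay at Znrf3 (2 peaks), Rnf43, Gsk3b and Nkd1. No peak at these genes was found in the Treg list alone, 0 of 8 (upper bound of the 95% interval 36.9%), while 41.4% of all Treg peaks were. The 8 Treg peaks lie at 5 genes and the 13 conventional peaks at 6, in 1 library each. They are not replicates, so these intervals are no test against the whole lists, whose shares were not matched for width. In the full lists Treg cells had fewer called peaks at 4 of the genes, the same number at Axin2 and Lrp6, and more at none. The Treg list is also the shorter one, with 3402 peaks against 4519. Peaks at the 10 genes made up 0.235% of the Treg list and 0.288% of the conventional list. The share of all genes with fewer Treg peaks is not given here. The difference in peak number, -5 for Treg minus conventional, was not seen among the peaks at least as wide as the median of their own list, where 8 Treg peaks at 5 genes stood beside 8 conventional peaks at 3 genes (Axin2, Znrf3 and Rnf43). There Gsk3b and Lrp6 each had 1 Treg peak and 0 conventional peaks, so that the direction turned at Gsk3b, and 2 Treg peaks stood in their list alone. With the conventional list cut by width to the length of the Treg list, the difference was -3 and 1 Treg peak stood alone.

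**Figure D1:**
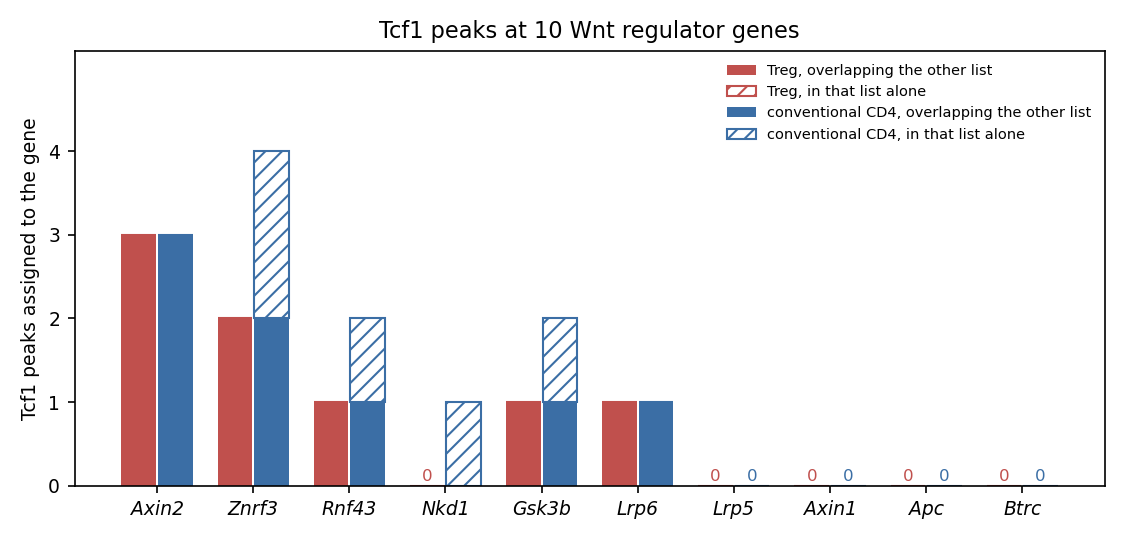
Number of Tcf1 peaks assigned to each of the 10 genes (vertical axis) in the Treg list (red, left bar) and the conventional CD4 list (blue, right bar), with 1 library each. Filled parts overlap a peak of the other list and hatched parts are in 1 list alone, and all hatched parts are conventional, 2 at Znrf3 and 1 each at Rnf43, Nkd1 and Gsk3b.

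Axin2, the scaffold that is itself a Wnt target (chromosome 11, 108917828 to 108950783), carried 3 peaks in each list, and all 3 coincided. At least 3 peaks in both lists were found at 47 of all protein-coding genes (0.215%). The count of 3 includes a distal peak, and Axin2 had 2 peaks in each list when the nearest gene had to lie within 20 kb. The widest Axin2 peak spanned 108920115 to 108921517 in Treg cells and 108920073 to 108921575 in conventional cells. Its widths of 1403 bp in the Treg list and 1503 bp in the conventional list ranked 24 and 13 from the widest in those lists. A width of at least 1000 bp was reached by 2.12% of all Treg peaks and 2.41% of all conventional peaks, and at these genes by 2 Treg peaks (Axin2 and Gsk3b) and 1 conventional peak (Axin2). The peak lies inside the RefSeq span, and it also lies on an annotated start at 108920349, 2521 bp into the span. From that start the Treg peak reached 234 bp upstream and 1168 bp downstream, and the conventional peak 276 bp upstream and 1226 bp downstream. Most of the peak was therefore downstream of the start, and the midpoints, 467 bp and 475 bp from it, were 8 bp apart.

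The start window of Axin2, 300 bases from 108920099 to 108920398, was covered over 284 bases by the Treg peak and over all 300 by the conventional peak. It was rich in G and C (70.0%, above 87.7% of the start windows of protein-coding genes) and held 31 CpG dinucleotides. The TCF/LEF string CTTTGAA was present on neither strand, and the same was true of the string CTTTGAT, of the string CTTTGTA and of the string CTTTGTT. At least 1 of these 4 strings was found in 14.7% of the 21263 windows of protein-coding genes. The core CTTTG, which all 4 contain and which 51.2% of those windows hold, was not present either. These letters are missing from this window only, and the downstream part of the peak was not read.

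The upstream Axin2 peak (108910494 to 108911270 in Treg cells, 108910642 to 108911333 in conventional cells) had its midpoint 6946 bp and 6841 bp outside the span. It covered the start of Gm46298 at 108910959, a noncoding RNA gene on the minus strand that is read away from Axin2. The whole window at that start lay under the peak in both lists and held no CTTTG, while another annotated start of Gm46298, at 108910057, was covered in neither. At 777 bp in the Treg list and 692 bp in the conventional list, this peak ranked 168 from the widest in the Treg list and 510 in the conventional list. The distal peak (109011656 to 109012106 in Treg cells, 109011654 to 109012101 in conventional cells) lay 61098 bp and 61094 bp beyond the upper end of Axin2, within the span of the noncoding gene Gm36876 and away from that gene's annotated start. Its edges differed by 2 bp and 5 bp between the lists. Over these genes 3 of 8 Treg peaks and 4 of 13 conventional peaks overlapped a long noncoding RNA gene, against 13.3% and 13.8% of the whole lists.

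**Figure D2:**
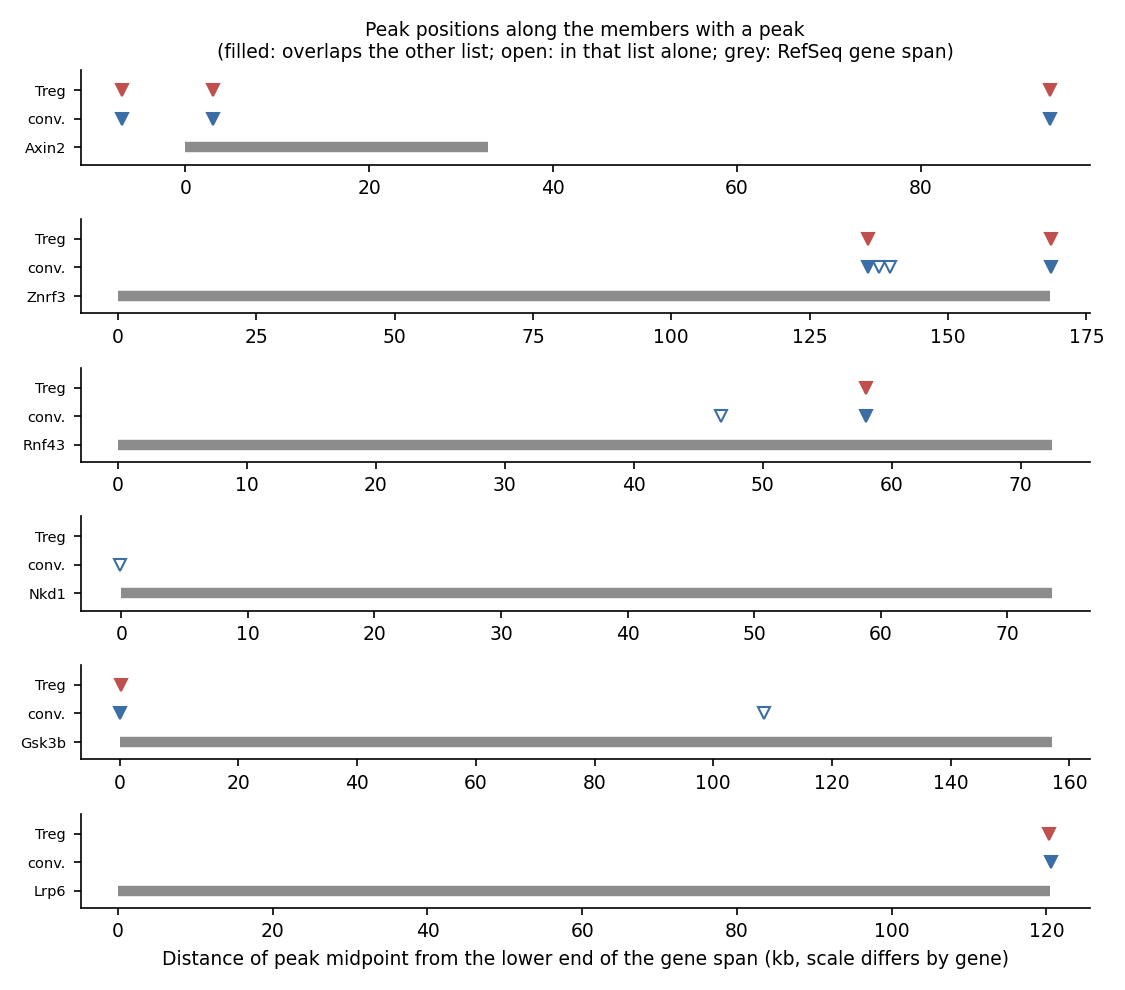
Positions of peak midpoints (triangles) along the 6 genes with a peak, in kb from the lower end of each RefSeq span (grey bar), with Treg peaks above conventional peaks. Filled triangles overlap the other list and open ones are in 1 list alone: each red triangle has a blue partner, and the open ones lie inside Znrf3, Rnf43 and Gsk3b and at the end of Nkd1.

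The receptor ubiquitin ligases Znrf3 and Rnf43 remove Frizzled and its co-receptors from the cell surface. Znrf3 (chromosome 11, 5276329 to 5444847) had 2 Treg and 4 conventional peaks. At least 2 Treg peaks were assigned to 1.69% of protein-coding genes and at least 4 conventional peaks to 0.27%. A shared peak covered the upper end of the span, at 5444616 to 5445157 in Treg cells and 5444585 to 5445138 in conventional cells, with widths of 542 bp and 554 bp. The gene table gives no strand and no start window for Znrf3 was used, so this end was not assigned to the start or the end of transcription. The other shared peak lay inside the gene, at 5411574 to 5412059 in Treg cells and 5411511 to 5412090 in conventional cells.

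Beside the inner Znrf3 peak the conventional list alone had 2 more, at 5413555 to 5414152 and 5415579 to 5416166. The 3 conventional peaks were 580, 598 and 588 bp wide, with gaps of 1464 bp and 1426 bp between them, and the run covered 4656 bp. The 2 peaks without a Treg partner were as wide as the one with a partner and were at percentiles 80.0 and 78.9 of width in their list. The nearest Treg peak ended 1495 bp from the first and 3519 bp from the second. The lists do not hold the read depth at these sites in Treg cells.

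Rnf43 (chromosome 11, 87663087 to 87735539) had 1 Treg and 2 conventional peaks, all inside the span, and at least 2 conventional peaks were assigned to 2.81% of protein-coding genes. The shared one, 87720827 to 87721342 in Treg cells and 87720777 to 87721367 in conventional cells, was 516 bp and 591 bp wide, with midpoints 12 bp apart. The conventional-only peak (87709669 to 87710023) was 355 bp wide, at percentile 28.4 of its list, and its nearest Treg peak was 10803 bp away. Neither lay at an annotated Rnf43 start, since the 2 start windows used were at 87662837 and 87699647 and were not covered in either list. Beyond the upper end of Rnf43, within 100 kb of its span, lay 5 Treg and 6 conventional peaks assigned to the neighbouring genes Supt4a and Tspoap1. All 5 of these Treg peaks were shared, the closest with its midpoint 1834 bp outside the Rnf43 span in Treg cells and 1911 bp in conventional cells. When every peak within 10 kb of the span was counted, Rnf43 had 3 Treg and 4 conventional peaks.

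Nkd1, which binds and inhibits Dishevelled (chromosome 8, 88521342 to 88594887), had 0 Treg peaks and 1 conventional peak, at 88521075 to 88521415. The nearest Treg peak had its midpoint 159205 bp from the span, at Brd7. This state, a peak in conventional cells and none in Treg cells, applied to 8.1% of all protein-coding genes. The Nkd1 peak covered the lower end of the Nkd1 span, which is the upstream end because Nkd1 is read on the plus strand. It also covered the start of Gm35162, which lies 221 bp away and is read on the minus strand. It covered 297 of the 300 bases of the Gm35162 start window, which is 79.0% G and C. The letters CTTTGAT occurred once in that window, at 88521271 to 88521277 on the plus strand, 65 bp below the Nkd1 span. On the strand of Gm35162 they read ATCAAAG. At least 1 of the 4 strings searched was found in 20.8% of the 11588 start windows of long noncoding RNA genes, and CTTTGAT itself in 4.67%. An annotated Nkd1 start farther in, whose window runs from 88527383 to 88527682, was covered in neither list. The peak was 341 bp wide, at percentile 23.1 of its list, and it was missing from the 3402 widest conventional peaks, the length of the Treg list.

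Gsk3b, the kinase of the destruction complex (chromosome 16, 38089001 to 38246084), had the one shared peak of the 8 that differed in width by more than 1.5 times. In Treg cells it spanned 38088712 to 38089748 and was 1037 bp wide, at percentile 98.1 of the Treg list. In conventional cells it spanned 38088811 to 38089151 and was 341 bp wide, at percentile 23.1 of the conventional list. The conventional peak lay wholly within the Treg peak and filled 32.9% of it. The Treg peak was 3.04 times as wide as its conventional partner. A ratio of at least 2 was found in 41 of 1935 shared Treg peaks (2.12%) and a ratio of at least 3 in 12 (0.62%). The cut of 3 lies just below the Gsk3b ratio, so that share is no test. The median ratio over all 1935 was 0.854. Both peaks covered the Gsk3b start at 38089001. The Treg peak extended 747 bp past it, over the start of BC031361, a noncoding RNA gene on the minus strand that begins 259 bp into Gsk3b. The conventional peak ended 109 bp short of that start. The midpoint of the Treg peak lay 30 bp from the BC031361 start, and that of the conventional peak 20 bp from the Gsk3b start. The lists hold no summits, so whether the Treg peak joined several is not known.

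The Gsk3b start window was covered over all 300 bases in Treg cells and over 240 in conventional cells. None of the 4 strings of 7 letters was present, and CTTTGA occurred once on the strand opposite to the gene, 77 bases before the start at 38088924 to 38088929, under both peaks. CTTTGA was found in 14.4% of the windows of protein-coding genes. The BC031361 window, all of it under the Treg peak and none of it under the conventional peak, held no CTTTG. A further conventional-only peak lay deep inside Gsk3b (38197327 to 38197688), 362 bp wide and 107578 bp from the nearest Treg peak. No annotated gene other than Gsk3b overlapped it.

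**Figure D3:**
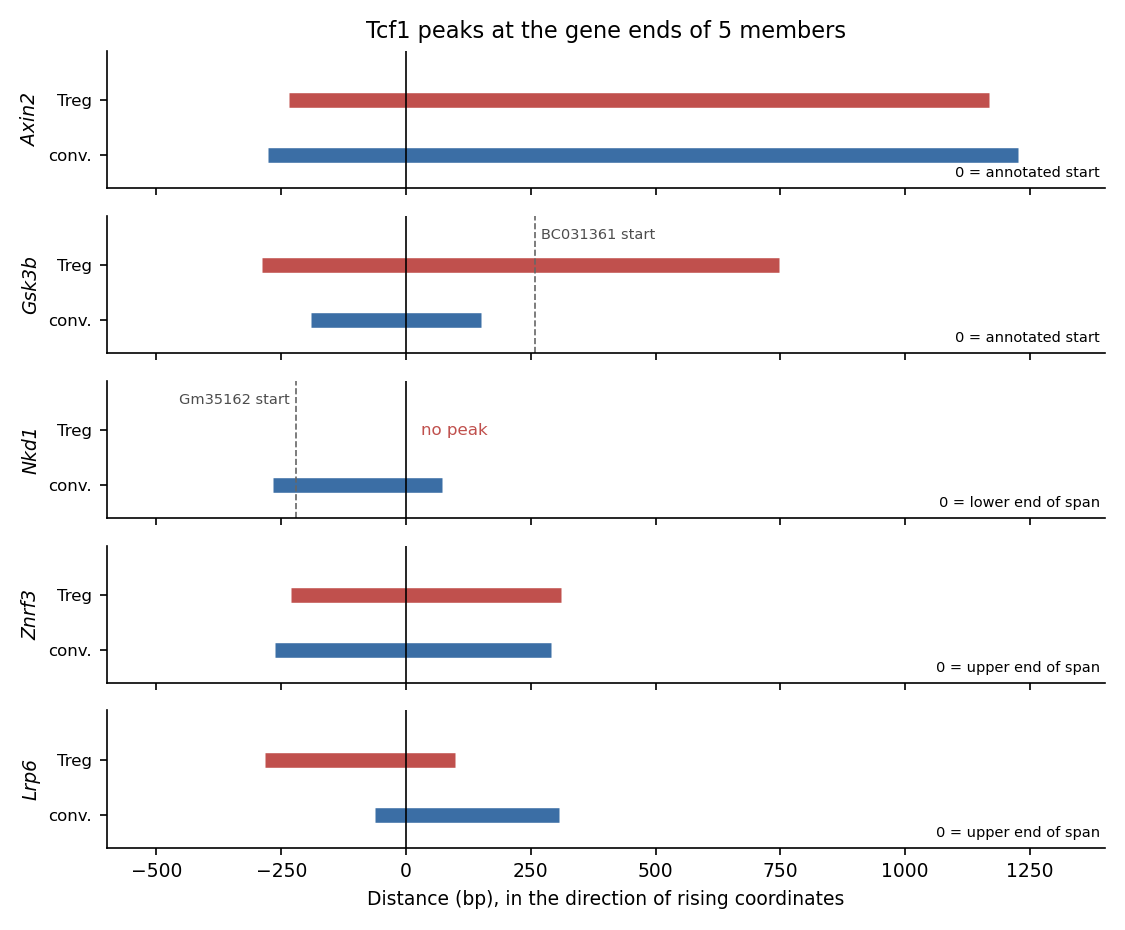
Extent of the peaks (bars, Treg in red above conventional in blue) in bp around the annotated start of Axin2 and Gsk3b, the lower end of the Nkd1 span and the upper ends of the Znrf3 and Lrp6 spans (solid line at 0). Dashed lines are the starts of the noncoding genes BC031361 and Gm35162: the Treg bar at Gsk3b crosses that start and the conventional bar stops 109 bp short of it, and Nkd1 has no Treg bar.

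Lrp6, a co-receptor for Wnt ligands (chromosome 6, 134446476 to 134566913), had 1 peak in each list over the upper end of its span. The Treg peak (134566630 to 134567012, 383 bp) lay mostly inside the span, and its midpoint was inside. The conventional peak (134566851 to 134567219, 369 bp) lay mostly outside, with its midpoint 122 bp beyond the end. They overlapped by 162 bp, which was 42.3% of the Treg peak and 43.9% of the conventional peak, and their midpoints were 214 bp apart. Under a rule that asks for an overlap of 50% of both peaks, the peaks at Lrp6 and at Gsk3b were no longer shared, and 6 of 8 Treg peaks were. The median distance between midpoints was 20.5 bp over the 8 pairs at these genes, with a range of 4 to 249 bp, and 59 bp over all 1935 shared Treg peaks.

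Lrp5, the other co-receptor (chromosome 19, 3584825 to 3686585), had no peak, and neither did the scaffold Axin1 (chromosome 17, 26131217 to 26195811), the scaffold Apc or Btrc (chromosome 19, 45363688 to 45533343). Their nearest peaks were assigned to other genes. At Apc a shared peak lay close by, with its midpoint 9027 bp from the span in Treg cells and 8865 bp in conventional cells, and it was assigned to Srp19. At Axin1 the nearest Treg peak was 17798 bp away, at Pgap6, and the nearest conventional peak 48766 bp away, at Fam234a, and neither was shared. At Lrp5 the nearest Treg peak was 326138 bp away, while a conventional-only peak assigned to Ppp6r3 lay 8813 bp away. At Btrc the nearest peaks were 257442 bp away in Treg cells and 250282 bp away in conventional cells. Counting every peak within 10 kb of a span gave Apc 1 peak in each list and Lrp5 1 conventional peak. By the rule used here the related scaffolds Axin2 and Axin1 stood at 3 and 0 peaks in each list. That contrast depends on the neighbouring genes. Within 100 kb of the Axin1 span lay 1 Treg and 2 conventional peaks, all assigned to other genes. Within 100 kb of Axin2 lay 3 in each list, of which 1 in each was inside its span.

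Peak width, the one measure of extent in the lists, was used to place these peaks within their own list. The 8 Treg peaks were 383 to 1403 bp wide with a median of 529 bp, against a median of 366 bp over the Treg list. All 8 were wider than that list median. The 13 conventional peaks were 341 to 1503 bp wide with a median of 554 bp, against a median of 428 bp over the conventional list, and 8 of the 13 exceeded it. The 5 narrower ones were both Gsk3b peaks, the Lrp6 and Nkd1 peaks and the conventional-only peak at Rnf43. The 8 shared conventional peaks had a median of 567 bp and the 5 conventional-only peaks a median of 362 bp, and the 2 Znrf3 peaks of 598 and 588 bp were the wide ones among the latter set. Of the 8 shared pairs, 4 were wider in Treg cells and 4 in conventional cells, where 580 of all 1935 shared Treg peaks were wider than their conventional partner. Widths were not compared by a test between lists, since they depend on depth.

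**Figure D4:**
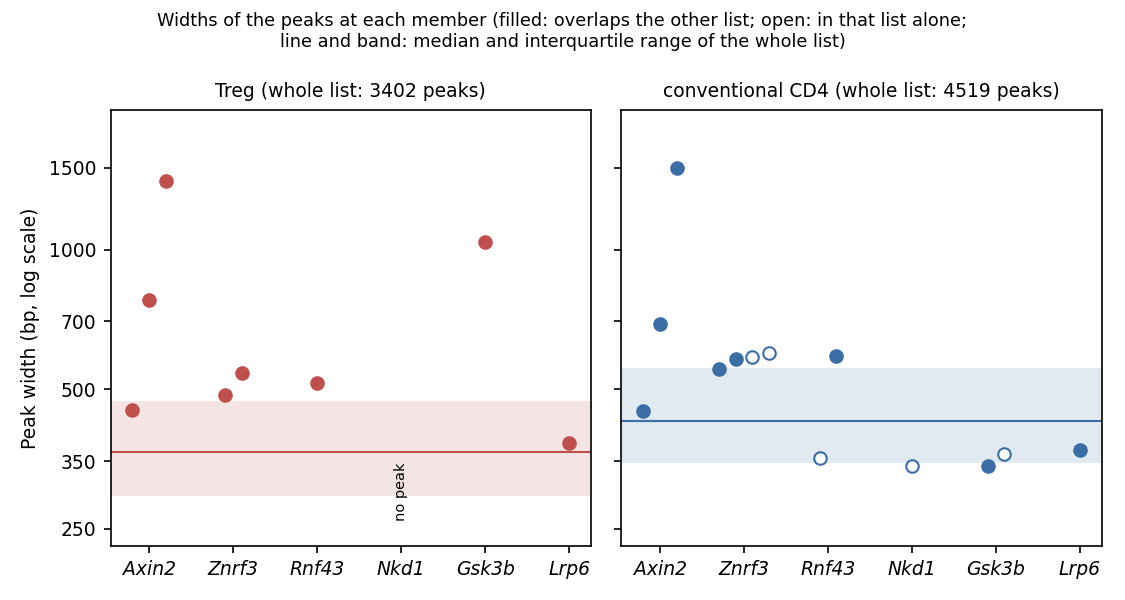
Width in bp (log axis) of each peak at the 6 genes with a peak, for the Treg list (left panel) and the conventional CD4 list (right panel), with the median (line) and interquartile range (band) of each whole list. All Treg points lie above the Treg median of 366 bp, and the Gsk3b point at 1037 bp in the Treg panel stands at 341 bp in the conventional panel.

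A peak covered an end of a gene span in 3 of 8 Treg peaks at these genes (Znrf3, Gsk3b and Lrp6) and 4 of 13 conventional peaks (the same and Nkd1). Over the whole lists 27.7% of Treg peaks and 34.3% of conventional peaks did so, so these shares were near the background. Midpoints lay inside the span in 5 of 8 Treg and 7 of 13 conventional peaks, against 53.8% and 59.5% of the lists. RefSeq start windows were at hand for 4 of the 10 genes, and those of Axin2 and Gsk3b were overlapped in both lists, while those of Rnf43 and Nkd1 were overlapped in neither. The Nkd1 window lies inside the Nkd1 span, and the upstream end of that span was covered by the conventional peak. Over 17492 protein-coding genes with a window, 7.11% were overlapped in the Treg list, 11.3% in the conventional list and 4.69% in both.

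The other genes of the pathway, 90 in 11 roles, had a Treg peak in 17 (18.9%) and a conventional peak in 23 (25.6%), with 14 in both, against 12.3% and 16.3% of all protein-coding genes. This list of 90 was drawn up with earlier results of these data known, so the shares stand side by side without a test. Neither list had a peak at any of 10 Frizzled receptors, 7 R-spondins and their Lgr receptors or 13 secreted antagonists. The same was true of 6 genes grouped here as cytoplasmic transducers, namely Dishevelled and Frat genes and Nkd2. For Nkd2 this is only a group name, since Nkd1 is described above as an inhibitor. The spread over roles was not tested. Of 19 Wnt ligands, 2 had a Treg peak and 3 a conventional peak, among them Wnt10a with 1 Treg and 2 conventional peaks, Wnt5b with 0 and 2, Wnt7b with 0 and 1, and Wnt11 with 1 and 0. Of the 2 ligand secretion genes, Wls had 1 Treg peak and no conventional peak.

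Other destruction complex genes resembled the genes above in count, with 5 of 11 carrying a peak in each list and 4 in both. Fbxw11, the paralogue of Btrc, had 2 Treg peaks and 1 conventional peak where Btrc had none. Gsk3a, the paralogue of Gsk3b, had 1 peak in each list, and these did not overlap. The kinase gene Csnk1a1 had 1 shared peak, and Tnks, a tankyrase that marks Axin for removal, had 0 Treg and 2 conventional peaks. Of these 11 genes' 6 Treg peaks 3 were Treg-only, whereas none of the 8 at the 10 genes was, and this difference was not tested. Ctnnb1, which encodes beta-catenin, had 1 shared peak.

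Downstream of beta-catenin, 3 of 4 TCF/LEF genes had peaks in both lists. Lef1 had 5 Treg and 10 conventional peaks, Tcf7 had 7 in each, and Tcf7l2 had 1 and 2. Among 10 nuclear cofactors, 1 had a Treg peak and 6 a conventional peak. The acetyltransferase gene Ep300 had 3 Treg and 2 conventional peaks, the corepressor gene Tle4 had 0 and 2, and the beta-catenin partners Bcl9 and Bcl9l each had 0 and 1. Of 6 target genes outside the pathway, 4 had a Treg peak and 5 a conventional peak. Ccnd2, Jun and Myc each had 1 shared peak, and Cd44 had 0 Treg and 2 conventional peaks. Over these 90 genes, 23 of 45 conventional peaks and 7 of 30 Treg peaks stood in their list alone. Over the whole lists 2527 of 4519 conventional peaks (55.9%) and 1407 of 3402 Treg peaks (41.4%) did. The larger number of conventional-only peaks, at these genes as at the 10 genes, is thus also a feature of the whole lists.

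**Figure D5:**
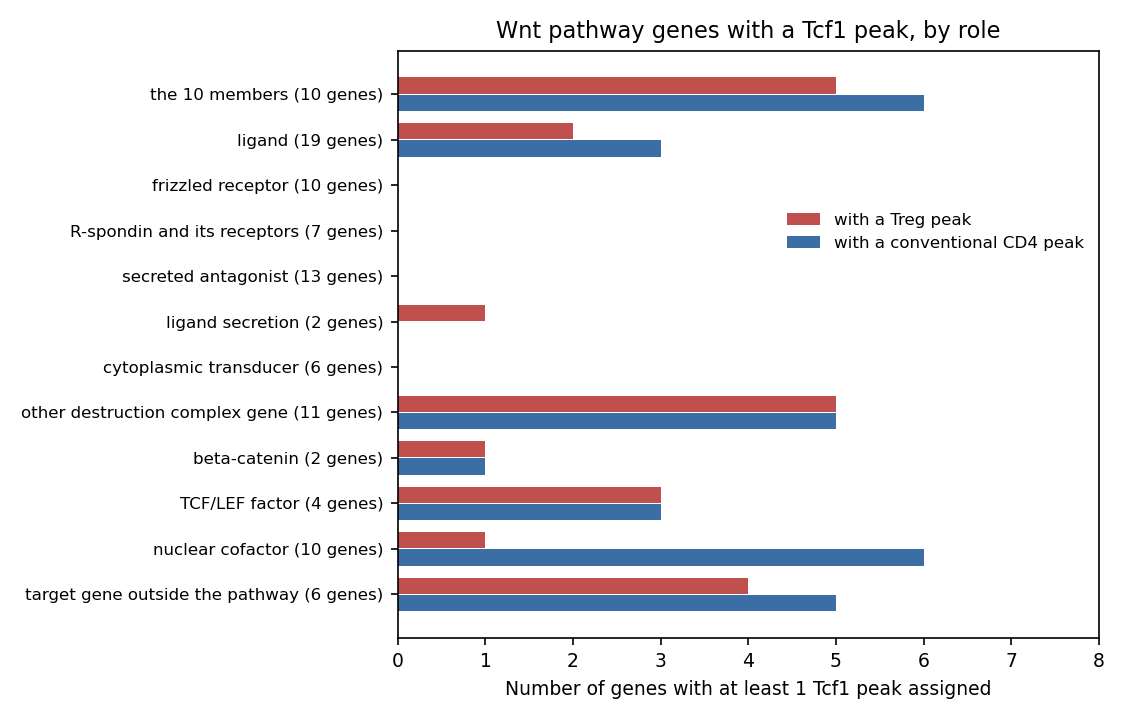
Number of genes with at least 1 Tcf1 peak (horizontal axis) in the Treg list (red, upper bar) and the conventional CD4 list (blue, lower bar), for the 10 genes and for 90 other Wnt pathway genes by role, with the size of each role in brackets. The 10 genes stand at 5 and 6, Frizzled receptors, R-spondins, secreted antagonists and cytoplasmic transducers at 0, and nuclear cofactors at 1 and 6.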

How the data were processed

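The Tcf1 peak lists were deposited by the authors as chromosome, start and end on the mm10 build, without counts, heights, scores or p-values, so depth is unknown and no test between cell types was made. FastQC, Bowtie2 2.3.4.1 and MACS2 2.1.1 are named in the submitters' processing notes with no role, and neither the filter nor the control is stated. Depth can change both the number and the width of called peaks.

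Peaks were joined to spans of 21887 protein-coding genes of RefSeq GRCm38.p6, whose primary chromosomes are those of mm10. A midpoint was assigned to each span that held it, or otherwise to the nearest span within 100 kb. Peaks overlapping by at least 1 bp were shared, and a peak with no overlap and no midpoint from the other list within 1000 bp belonged to 1 list alone. All 10 members and 90 other pathway genes matched by symbol. The RefSeq start windows run from 250 bases before to 50 after a start, and motifs were sought on both strands. CTTTGA and CTTTG were added after the windows were read. Python 3.11.15, numpy 2.4.6, pandas 2.3.3, scipy 1.17.1 and matplotlib 3.10.9 were used. The assignment of peaks inside gene spans and the recovery of planted overlaps were tested on simulated data. Assignment to the nearest gene outside a span was not simulated. The rule named every member, every peak at a member, the genes annotated under those peaks and up to 4 other pathway genes per role. Members and lists were chosen with earlier results of these data known. Coordinates are 1-based. Intervals are exact Clopper-Pearson intervals at 95% and cover counting error only.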

Additional observations from a re-analysis of the deposited data

How the results depend on the processing

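Of 100 values recomputed under the alternatives for counts, widths and motifs, 14 of them for the 90 other pathway genes and the rest for the 10 genes, 90 stayed within 1.5 times the reported value, as did 129 of 140 values for single genes. Part of this was fixed in advance. Asking for an overlap of 50%, or for midpoints within 500 bp, changed only which peaks were shared. Those settings could not move gene counts, peak counts or widths, including the 20 single-gene values under each. Among the peaks at least as wide as the median of their list (1706 Treg and 2274 conventional peaks), with sharing found anew, conventional peaks at the genes numbered 8, so that the difference of Treg minus conventional was 0 instead of -5. A conventional peak was then found at 3 genes, a peak in both lists at 3, 2 Treg peaks stood in their list alone because narrower partners had been removed, and 2 conventional peaks did. With the conventional list cut by width to the length of the Treg list (3402 peaks), the difference was -3 and 1 Treg peak stood alone. At single genes, those wider peaks held 0 conventional peaks at Gsk3b, Lrp6 and Nkd1 and 1 at Rnf43, and lists of equal length held 0 at Nkd1 and 1 at Gsk3b. Counting every peak within 10 kb of a span gave 3 Treg and 4 conventional peaks at Rnf43, 1 and 1 at Apc, and 0 and 1 at Lrp5. Axin2 went from 3 to 2 peaks in each list under that rule, and also when the nearest gene had to lie within 20 kb. The shorter motifs CTTTGA and CTTTG, chosen after the data were seen, were each found in 1 of the 5 start windows of the genes, against 0 for the 7-base strings. No paired analysis was possible because each cell type had 1 library. Depth limits every missing peak, since the lists carry no read counts.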
